A study of Mus musculus with 15 samples.

Results

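The 8 genes described here encode the receptor for leukaemia inhibitory factor (LIF), the transcription factor it activates and a set of that factor's direct targets. They were chosen by their known roles, at a time when earlier results of these data were known. They are the rows with the symbols Lifr, Il6st, Stat3, Socs3, Bcl3, Pim1, Pim3 and Junb, out of 21516 gene symbols in the deposited count tables. All 8 passed the filter on low counts, as did 9390 genes in all. The RNA came from mouse embryonic stem cells of 1 reporter line, in which the Rex1 promoter drives a red fluorescent protein, after 72 h in culture and by a 3' tag protocol that counts transcripts near their 3' ends. In every group the cells were first grown with LIF. The NS group (normal stemness) then kept LIF and the ND group (normal differentiation) had none. In the remaining groups LIF was kept and sorbitol, a polyol used to make the medium hyperosmotic, was added to 200, 250 or 300 mM. There were 3 libraries per group, from experiments described as biological triplicates, so the p-values measure the spread between those experiments, and 12 of the 15 libraries had LIF.

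LIF binds a receptor of paired chains, the LIF receptor itself and gp130, the chain that the whole interleukin-6 cytokine family shares. Janus kinases bound to the chains then phosphorylate STAT3, which enters the nucleus and switches on genes that keep mouse embryonic stem cells undifferentiated. Among these targets is Socs3, whose protein binds gp130 and the kinases and damps the signal, and Stat3 itself is a known target of its own protein. RNA levels, as measured here, do not show STAT3 phosphorylation.

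Library totals ran from 968556 to 2289528 counts, so 3 counts corresponded to 1.31 to 3.10 CPM (counts scaled to a common library size by the TMM method). Replicate 1 was the deepest library of every group. NS 3 stood apart from the other NS libraries: a chi-square of the counts over genes, per degree of freedom, was 29.3 against NS 1 and 13.4 against NS 2, and 5.16 between those, where sampling noise alone gives a value near 1. Fibroblast markers, a check for feeder cells, summed to 3.14 to 19.9 CPM per library, and Col3a1, Lum and Postn were at 0 in all 15. The undifferentiated stem cell markers summed to 1899 to 2256 CPM in NS, and to between 1918 and 2443 CPM over the sorbitol groups. In ND they summed to 1048 to 1840 CPM, below NS in every library. Of the 9 markers 7 were lower and 2 higher in ND than in NS. Only 1 passed edgeR's quasi-likelihood test, as 0.0319% of all tested genes did. This was Tdgf1, at 426 ± 107 CPM (SD) in NS and 170 ± 23.5 in ND (adjusted p = 0.0473). With sorbitol 0 of 9 passed against NS at 200, 250 and 300 mM, where 0.586, 4.47 and 7.89% of all genes did. At each dose 5 were higher and 4 lower. In these bulk samples, fewer cells that express a gene and less of its RNA per cell cannot be told apart.

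Promoter windows of the genes on which the results turn most are given first, from the RefSeq table for GRCm38.p6, as 250 bases before and 50 after the annotated start. Proteins of the STAT family recognise palindromes with TTC on one side and GAA on the other, spaced by 3 or 4 letters. Both spacings were searched in all windows (the letters read the same on either strand). All 8 genes had a window, with a second one each for Lifr and Pim1, which made 10 windows. A match was present in 1 of the 10, that of Socs3, where TTCTTAGAA begins 154 bases before the start. Of 32851 windows in the table, 8.30% held the 3-letter spacing and 14.6% either one. The matched letters and the annotated start base are in capitals below. The Socs3 window lies on the minus strand at chr11:117969317-117969616, that of Stat3 on the minus strand at chr11:100939491-100939790 and that of Bcl3 on the minus strand at chr7:19822706-19823005.
Socs3: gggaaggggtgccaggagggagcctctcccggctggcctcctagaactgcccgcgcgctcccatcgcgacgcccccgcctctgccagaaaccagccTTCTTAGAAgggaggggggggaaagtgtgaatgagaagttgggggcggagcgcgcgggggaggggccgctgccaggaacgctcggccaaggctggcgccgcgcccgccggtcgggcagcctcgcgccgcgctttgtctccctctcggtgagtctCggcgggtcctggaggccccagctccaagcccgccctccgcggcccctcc
Stat3: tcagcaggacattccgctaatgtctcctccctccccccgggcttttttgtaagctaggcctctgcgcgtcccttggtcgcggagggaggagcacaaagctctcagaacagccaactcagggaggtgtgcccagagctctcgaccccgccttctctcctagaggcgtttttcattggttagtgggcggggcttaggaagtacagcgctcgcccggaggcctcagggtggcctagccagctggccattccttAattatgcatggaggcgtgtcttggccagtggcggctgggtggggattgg
Bcl3: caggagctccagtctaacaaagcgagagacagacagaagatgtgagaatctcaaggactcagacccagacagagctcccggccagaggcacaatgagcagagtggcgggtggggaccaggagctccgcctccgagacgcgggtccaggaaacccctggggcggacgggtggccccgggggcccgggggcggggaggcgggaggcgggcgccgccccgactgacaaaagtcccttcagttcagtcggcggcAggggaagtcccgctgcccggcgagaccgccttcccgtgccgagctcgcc

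Of the receptor chains, Lifr encodes the LIF-specific one. Its level was 53.0, 40.9 and 39.3 CPM in NS 1, 2 and 3, and 26.0, 28.6 and 30.2 CPM in ND 1, 2 and 3. Cells with sorbitol had 46.3, 46.0 and 30.2 CPM at 200 mM, 34.0, 20.6 and 30.1 CPM at 250 mM, and 29.9, 29.5 and 35.9 CPM at 300 mM. ND, 250 mM and 300 mM thus lay wholly below NS, while the 200 mM libraries reached into the NS range. Of all tested genes 4.28, 14.1 and 14.7% lay wholly below NS in ND and at 250 and 300 mM. The log2 change against NS was -0.66 ± 0.27 (SE) in ND, -0.65 ± 0.27 at 250 mM and -0.49 ± 0.27 at 300 mM, and none passed edgeR's quasi-likelihood test after Benjamini-Hochberg adjustment (adjusted p = 0.693, 0.166 and 0.270).

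Il6st encodes gp130. It stood at 25.3, 23.6 and 33.0 CPM in NS 1, 2 and 3 and at 25.1, 16.7 and 24.7 CPM in ND, ranges that overlap. At 200 mM of sorbitol Il6st was 11.9, 13.6 and 18.8 CPM, at 250 mM 16.8, 7.94 and 12.7 CPM, and at 300 mM 22.3, 7.58 and 17.5 CPM. All 9 sorbitol libraries lay below all 3 NS libraries, a pattern that 3.76% of the tested genes showed. The log2 changes against NS were -0.89 ± 0.38, -1.10 ± 0.38 and -0.76 ± 0.37 at the 3 doses, and edgeR's adjusted p was 0.390, 0.102 and 0.222. Counts were small, at 58 to 69 reads per sorbitol group against 116 in NS.

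Stat3 was the member, together with Bcl3, that separated the cells without LIF from all others. It measured 98.4, 125 and 120 CPM in NS 1, 2 and 3, and 54.9, 80.0 and 37.4 CPM in ND. With sorbitol it was 126, 191 and 122 CPM at 200 mM, 170, 149 and 135 CPM at 250 mM, and 153, 168 and 149 CPM at 300 mM. Each ND library was below each of the 12 libraries with LIF, as for 1.12% of the tested genes, and 250 and 300 mM lay wholly above NS, as 13.9 and 13.1% of genes did. Group means were 57.4 ± 21.4 CPM in ND and 114 ± 14.0 in NS (SD, n = 3 per group). At 200, 250 and 300 mM they were 147 ± 38.9, 151 ± 17.2 and 157 ± 10.2 CPM.

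Against ND, Stat3 rose with sorbitol and LIF by 1.36 ± 0.27, 1.41 ± 0.27 and 1.46 ± 0.27 on the log2 scale at the 3 doses (edgeR, adjusted p = 0.0129, 0.00584 and 0.00318). The 200 mM call was lost without ND 1 (adjusted p = 0.0658), without ND 3 (adjusted p = 0.0657) or without the second 200 mM library (adjusted p = 0.0506). ND against NS gave -1.01 ± 0.27, with an unadjusted p of 0.00174 that did not survive adjustment over all genes (adjusted p = 0.355). The changes against NS of 0.36 ± 0.26, 0.41 ± 0.26 and 0.46 ± 0.26 at 200, 250 and 300 mM did not pass (adjusted p = 0.690, 0.374 and 0.299). The sorbitol groups share the NS and the ND libraries as controls, so their changes are not independent of each other.

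**Figure D1:**
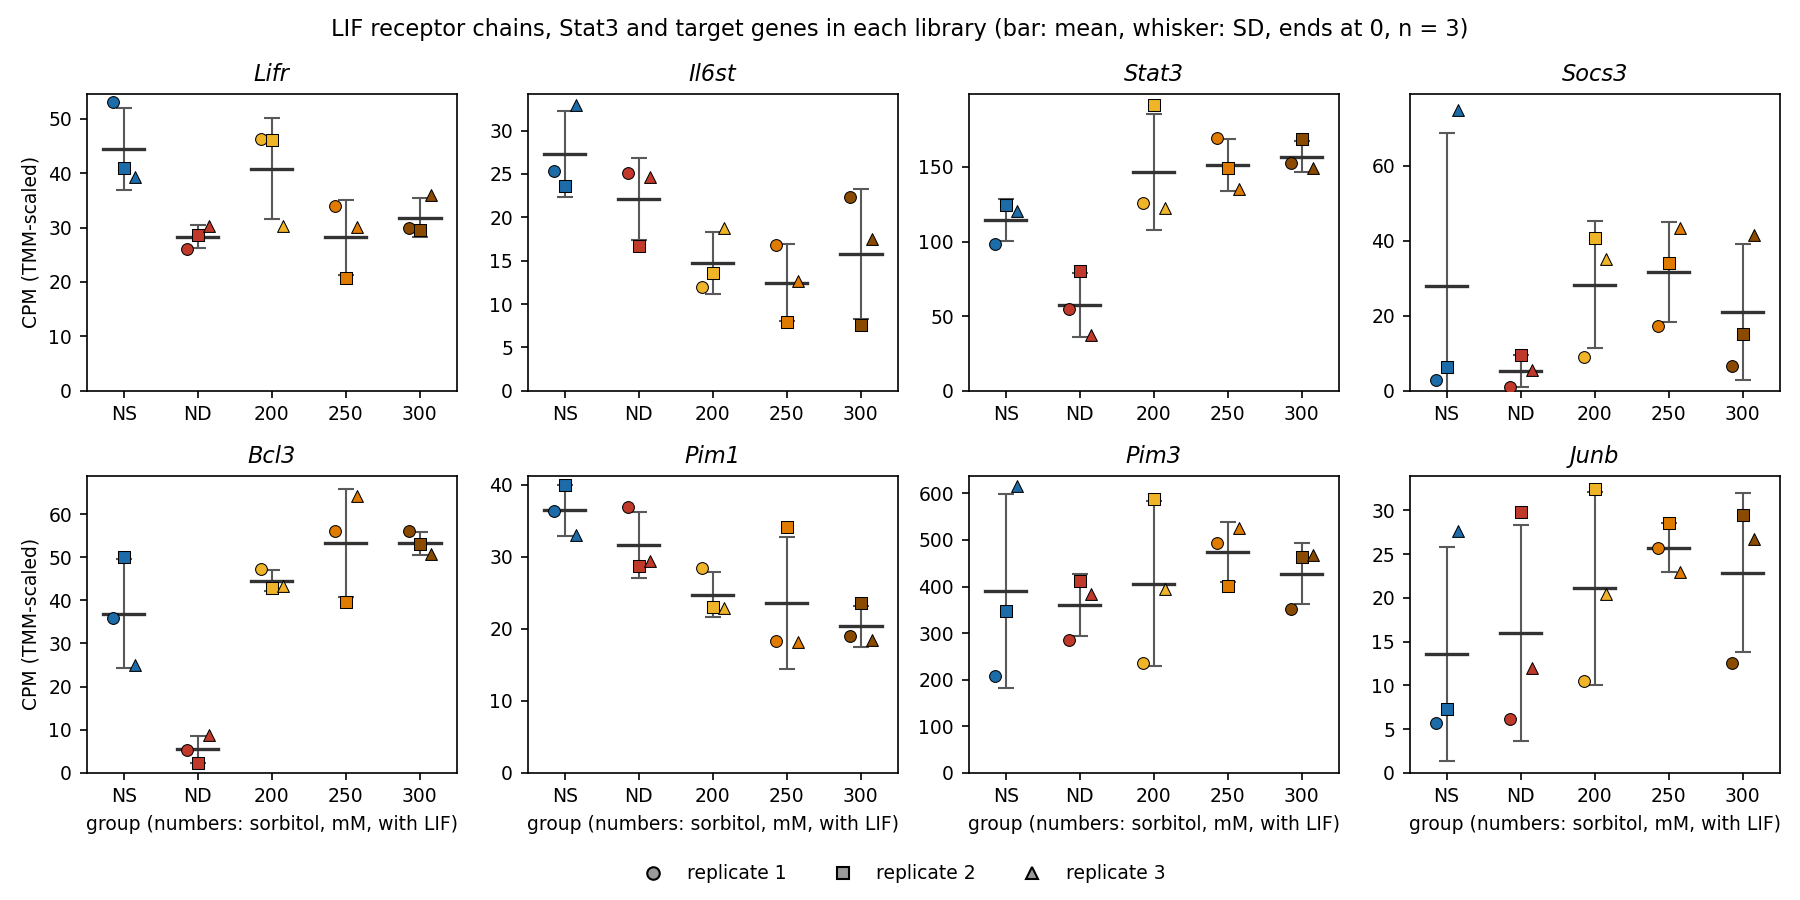
Scaled counts (CPM, y axis) of the 8 genes in each of the 15 libraries, by group (x axis; 200, 250 and 300 are mM of sorbitol with LIF); points are libraries, bars the mean and whiskers the SD of 3 libraries, drawn no lower than 0. Stat3 and Bcl3 show the 3 ND libraries below the other 12, Il6st shows the 9 sorbitol libraries below NS, and Socs3, Junb and Pim3 spread widely within groups.

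The feedback inhibitor Socs3 had few counts and differed most among libraries of 1 group. NS 1, NS 2 and NS 3 held 6, 7 and 84 reads of it, or 2.87, 6.36 and 74.9 CPM, and ND held 2, 8 and 7 reads, or 0.947, 9.55 and 5.57 CPM. With sorbitol it was 8.96, 40.8 and 35.1 CPM at 200 mM, 17.3, 34.1 and 43.6 CPM at 250 mM, and 6.53, 15.2 and 41.4 CPM at 300 mM. NS 3 was the highest of all 15 libraries, while NS 1 and NS 2 lay within the ND range. The lowest 250 mM library, at 17.3 CPM, was above the highest ND library, at 9.55 CPM, and the other sorbitol groups overlapped with ND. The share of all genes with such a gap is not given here.

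For Socs3, ND against NS gave a log2 change of -2.55 ± 1.10 (edgeR, adjusted p = 0.740), and 0.07 without NS 3. Against ND, it was 2.57 ± 1.10, 2.76 ± 1.09 and 2.14 ± 1.12 higher on the log2 scale at the 3 doses, and none passed (adjusted p = 0.336, 0.147 and 0.251). With the replicate number as a block, all 3 contrasts with ND passed, at 2.59, 2.89 and 2.05 (adjusted p = 0.0181, 0.00365 and 0.0338), though only for ND with 200 mM did all same-numbered libraries deviate together. Against NS the changes were 0.02 ± 0.91, 0.21 ± 0.89 and -0.41 ± 0.92. Without NS 3 these became 2.66, 2.85 and 2.23, and the one at 250 mM passed (adjusted p = 0.0397).

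Bcl3, a nuclear member of the IκB family that acts with NF-κB subunits, gave the clearest contrast. It measured 35.8, 49.99 and 24.98 CPM in NS 1, 2 and 3 and 5.21, 2.39 and 8.75 CPM in ND. In the sorbitol groups it was 47.3, 42.9 and 43.3 CPM at 200 mM, 56.0, 39.7 and 64.1 CPM at 250 mM, and 56.0, 53.1 and 50.7 CPM at 300 mM. Every ND library was below every library with LIF, as for 1.12% of the tested genes. Only the 300 mM group lay wholly above NS, as 13.1% of genes did. Libraries at 200 and 300 mM were close to each other, with SDs of 2.43 and 2.69 CPM, against 12.5 CPM in NS and in 250 mM.

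Of the 8 members 7 had a negative change after LIF withdrawal, and Bcl3 alone passed the threshold. It fell by 2.69 ± 0.37 on the log2 scale (edgeR, adjusted p = 0.0150), in a comparison in which 3 genes or 0.0319% of those tested passed. The change stayed between -3.11 and -2.42 when any 1 library was left out. Its call was lost without NS 1 (adjusted p = 0.0515), NS 2 (0.111), ND 1 (0.158) or ND 2 (0.111), and with NS 3 as the only NS library the change was -2.11 (0.935). The authors' deposited table gives Bcl3 an FDR of 2.12e-06 and calls no other member there. Against ND it rose by 2.96 ± 0.37, 3.22 ± 0.37 and 3.22 ± 0.37 at 200, 250 and 300 mM (adjusted p = 0.000397, 0.000197 and 0.000111), with each of the 6 fits per dose that left out a library past the threshold. Against NS its changes were 0.27 ± 0.31, 0.53 ± 0.31 and 0.53 ± 0.31, and none passed (adjusted p = 0.827, 0.322 and 0.306).

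Pim1 and Pim3 encode related serine/threonine kinases that promote survival and growth. Pim1 stood at 36.3, 39.99 and 33.0 CPM in NS 1, 2 and 3 and at 36.9, 28.6 and 29.4 CPM in ND. With sorbitol it was 28.4, 23.0 and 22.9 CPM at 200 mM, 18.3, 34.1 and 18.2 CPM at 250 mM, and 19.0, 23.6 and 18.4 CPM at 300 mM. The 200 and 300 mM groups lay wholly below NS, as 6.28 and 14.7% of genes did, and at 250 mM the second library reached into the NS range. The change against NS of -0.84 ± 0.29 at 300 mM missed the threshold (edgeR, adjusted p = 0.0824), as did -0.55 ± 0.28 at 200 mM (0.514) and -0.64 ± 0.28 at 250 mM (0.202). Unlike Bcl3, Pim1 did not separate ND from NS, with a change of -0.19 ± 0.28 (adjusted p = 0.949).

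Pim3 showed no separation between any 2 groups. It measured 208, 347 and 617 CPM in NS 1, 2 and 3, 285, 412 and 384 CPM in ND, and with sorbitol 235, 589 and 395 CPM at 200 mM, 494, 402 and 526 CPM at 250 mM and 351, 463 and 468 CPM at 300 mM. Its log2 changes ran from -0.11 to 0.40 over the 7 comparisons, with SEs of 0.35.

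Junb, an AP-1 subunit and immediate early gene, was low. It measured 5.73, 7.27 and 27.7 CPM in NS 1, 2 and 3 and 6.15, 29.8 and 11.9 CPM in ND. At 200, 250 and 300 mM it was 10.5, 32.4 and 20.4 CPM, 25.7, 28.6 and 23.0 CPM, and 12.5, 29.5 and 26.7 CPM. The NS, ND and sorbitol ranges all overlapped, and changes against NS of 0.64 ± 0.62, 0.98 ± 0.60 and 0.79 ± 0.61 with sorbitol did not pass (edgeR, adjusted p = 0.773, 0.353 and 0.459). Without NS 3 the 250 mM change was 1.998 and passed (adjusted p = 0.0404).

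Counted over the members, sorbitol against NS gave 0 of 8 past the threshold at each dose in edgeR and in DESeq2, where 0.586, 4.47 and 7.89% of all tested genes passed in edgeR at 200, 250 and 300 mM. At an unadjusted p under 0.05 the members numbered 1 (Il6st), 3 (Il6st, Lifr and Pim1) and 1 (Pim1), against 11, 21.9 and 24.7% of all genes. Against ND, Stat3 and Bcl3 rose at all 3 doses, 2 of 8, where 1.93, 5.87 and 9.66% of all genes passed in either direction and 1.26, 2.88 and 4.5% rose. With the replicate number as a block the 200 mM counts over all genes rose from 55 to 268 against NS and from 181 to 512 against ND. In the same setting the counts against NS rose from 420 to 1683 at 250 mM and from 741 to 1869 at 300 mM. Il6st then passed against NS at 250 mM and Pim1 at 300 mM (edgeR, adjusted p = 0.0210 and 0.0333). The median member change was -0.47 for ND against NS, 0.04, 0.25 and -0.14 for sorbitol against NS, and 0.50, 0.60 and 0.43 for sorbitol against ND, while the median over all tested genes lay between -0.02 and 0.01. Across the sorbitol doses no member followed the dose: 0 of 8 slopes passed in edgeR or DESeq2, 0 at an unadjusted p under 0.05, against 0.101 and 11.5% of 8928 genes at the adjusted and the unadjusted threshold. The slopes ran from -0.21 ± 0.32 for Socs3 to 0.13 ± 0.12 for Bcl3 on the log2 scale per 50 mM.

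**Figure D2:**
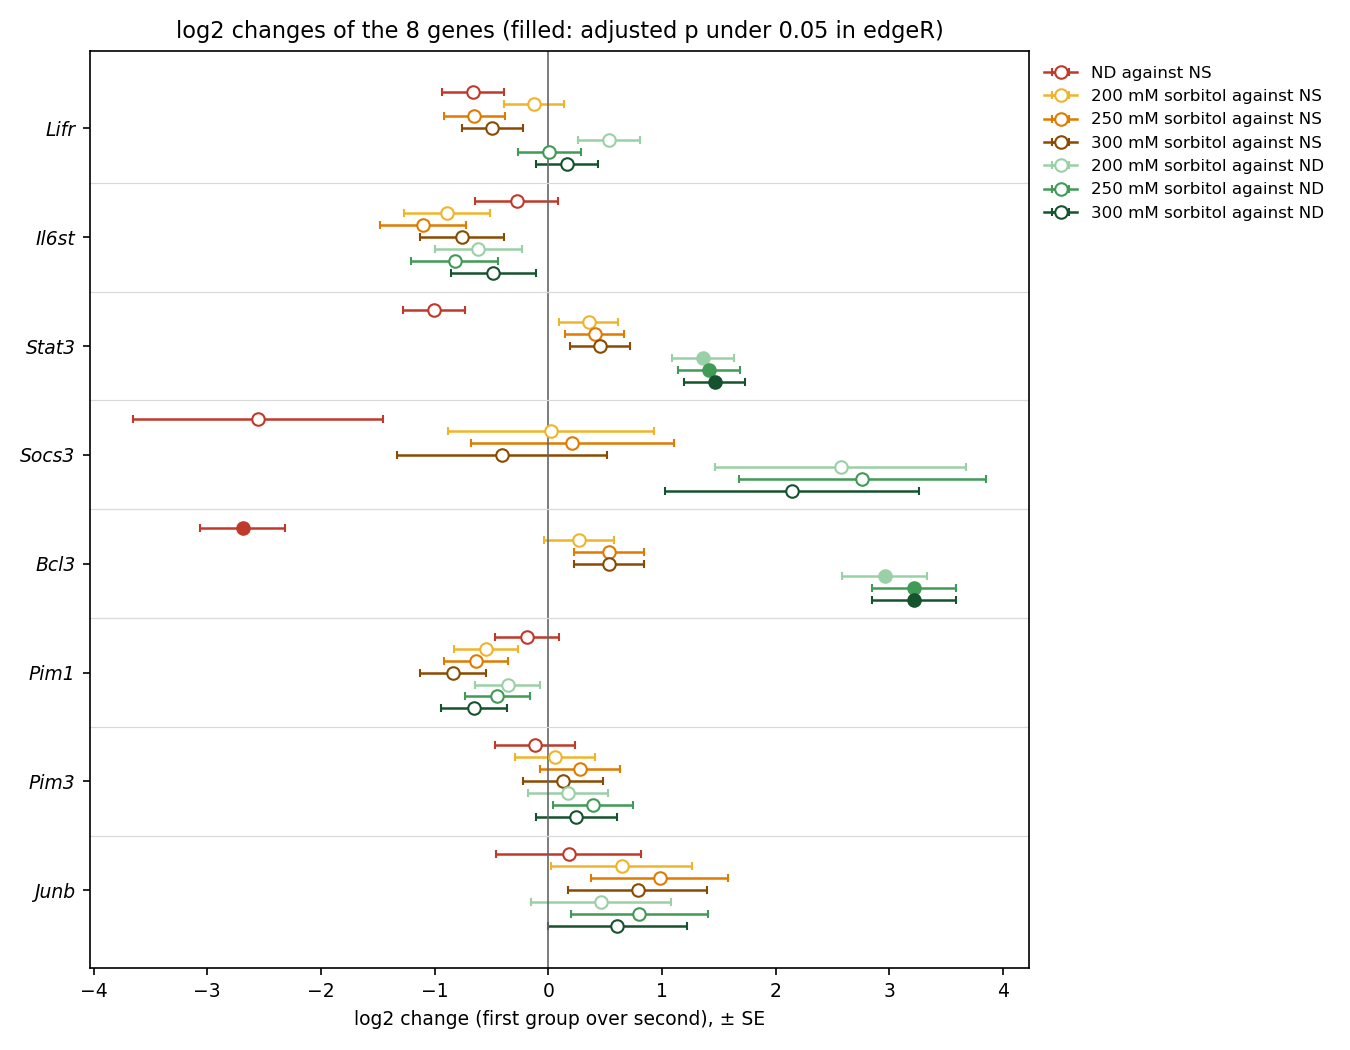
Log2 change (x axis, ± SE) of each of the 8 genes (y axis) in the 7 comparisons, each the first group over the second; filled symbols passed an adjusted p of 0.05 in edgeR. The filled symbols are Bcl3 in ND against NS and Stat3 and Bcl3 in the 3 comparisons of sorbitol with ND, and Socs3 has the widest error bars.

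Upstream of STAT3, cytokine genes of the gp130 family were at or near 0: none of 8 had enough counts to be tested, Lif itself was at 1.19 to 7.14 CPM, and the 8 summed to 8.17 to 30.3 CPM per library. The receptor chain Osmr, which pairs with gp130 for oncostatin M, was at most 1.99 CPM. Of the Janus kinases, Jak1 ranged from 48.3 to 89.5 CPM, with every group overlapping NS and ND, and 1 of 3 tested kinases, Jak2, was lower at 250 mM than in ND, by 1.73 ± 0.45 (edgeR, adjusted p = 0.0312), at 4.91 ± 1.82 against 17.1 ± 6.17 CPM. Jak2 had group means below 20 CPM, with up to 23.9 CPM in 1 ND library, and was named after its values were seen. Over the 7 comparisons 0 of the 10 adaptors and kinases that link the receptor to ERK and PI3K passed in edgeR or DESeq2, with 0 or 1 at an unadjusted p under 0.05 in each, and the same counts held for the 4 tested NF-κB and IκB partners of Bcl3. Of 4 other tested STAT genes 0 passed in edgeR, with 0 to 2 at an unadjusted p under 0.05, while DESeq2 called Stat5b, named after its values were seen, lower at 250 mM against NS and ND (adjusted p = 0.0317 and 0.0388). Of 4 tested AP-1 partners of Junb 0 passed in edgeR, with 0 or 1 at an unadjusted p under 0.05, while DESeq2 called Jun lower at 250 and 300 mM against ND (adjusted p = 0.0347 and 0.0352).

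Of the JAK-STAT inhibitors other than Socs3, 12 of 14 were tested. Socs2, a relative of Socs3 best known for restraining growth hormone signalling, was 107, 99.1 and 95.5 CPM in NS 1, 2 and 3, and 123, 58.5 and 175 CPM in ND. With sorbitol it was 52.3, 49.2 and 63.7 CPM at 200 mM, 50.3, 40.5 and 55.4 CPM at 250 mM, and 46.8, 36.2 and 48.8 CPM at 300 mM. All 9 sorbitol libraries were below all 3 NS libraries, as for 3.76% of the tested genes. Socs2 fell by 1.19 ± 0.31 at 300 mM against NS (edgeR, adjusted p = 0.0296) and by 1.29 ± 0.31 and 1.44 ± 0.31 at 250 and 300 mM against ND (adjusted p = 0.0210 and 0.00804). The call against NS was lost in 5 of the 6 fits without 1 library, at an adjusted p of up to 0.133. Against ND it was lost in 5 of 6 such fits at 250 mM (adjusted p of up to 0.0972) and, at 300 mM, without the second 300 mM library (0.0502). Ptpn2, a phosphatase that acts on Janus kinases and STATs, fell by 0.95 ± 0.26 at 250 mM against ND (adjusted p = 0.0368), a call that 1 of 6 such fits kept.

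Other genes known to respond to LIF or STAT3 in stem cells gave 17 tested of 19. In ND against NS 1 of 17, Klf4, passed the threshold with a fall, as 0.0319% of all tested genes did. Against ND, 2 rose past it at 200 mM, 4 at 250 mM, and 6 rose and 1 fell at 300 mM. Of all genes 1.26, 2.88 and 4.5% rose there, and 9.66% passed in either direction at 300 mM. Against NS 0 passed at 200 and at 250 mM in edgeR and in DESeq2, and 1 fell at 300 mM, where 7.89% of all genes passed in edgeR. At an unadjusted p under 0.05 there were 4 each at 200 and 250 mM, against 11 and 21.9% of all genes.

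Klf4, a transcription factor of the naive network, measured 399, 236 and 137 CPM in NS 1, 2 and 3 and 63.0, 34.6 and 36.6 CPM in ND. At 200 mM it was 829, 530 and 298 CPM, at 250 mM 399, 324 and 334 CPM and at 300 mM 382, 273 and 298 CPM. ND lay below every library with LIF, as for 1.12% of the tested genes. Klf4 fell by 2.50 ± 0.41 in ND (edgeR, adjusted p = 0.0473; 1 of 6 fits without a library kept the call) and rose against ND by 3.60 ± 0.42, 2.95 ± 0.41 and 2.80 ± 0.41 at the 3 doses (adjusted p = 0.000277, 0.000649 and 0.000633).

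Klf5, which acts beside Klf4, rose against ND by 1.29 ± 0.25, 1.22 ± 0.25 and 1.43 ± 0.25 at the 3 doses (edgeR, adjusted p = 0.0116, 0.00957 and 0.00242), from 181 ± 50.4 CPM in ND to 443 ± 129, 423 ± 28.3 and 489 ± 43.5 CPM. NS was at 361 ± 29.4 CPM. The 200 mM call for Klf5 was lost without ND 1 (adjusted p = 0.0530), ND 2 (0.0628) or the third 200 mM library (0.0539), and with only the libraries of both groups in the fit (0.169). Sgk1, a kinase gene also known to respond to hypertonic stress, rose by 1.59 ± 0.34 and 1.66 ± 0.34 at 250 and 300 mM against ND (adjusted p = 0.0120 and 0.00618). Its levels were 54.98 ± 6.09 CPM in NS, 23.9 ± 13.8 in ND and 73.6 ± 13.3 and 77.3 ± 8.22 CPM at those doses. The 250 mM call for Sgk1 was lost without ND 1 (adjusted p = 0.0522) or the third 250 mM library (0.0576). Pramel7, a gene of naive cells, had 3 reads in all of ND and measured 20.9, 27.0 and 18.2 CPM at 250 mM (adjusted p = 0.0223 against ND), and no fold is given for so few reads. That call was lost in 4 of the 6 fits without 1 library (adjusted p = 0.0584 to 0.102).

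Ier3, an early response gene, moved the other way. It was 372, 270 and 144 CPM in NS 1, 2 and 3, 224, 599 and 150 CPM in ND and 70.7, 35.4 and 43.3 CPM at 300 mM, where it fell by 2.38 ± 0.54 against NS (edgeR, adjusted p = 0.0151) and by 2.68 ± 0.55 against ND (adjusted p = 0.00588). The call against NS was kept in 3 of 6 fits without a library. Tfcp2l1, a target of STAT3 in naive cells, was 224 to 232 CPM in NS, 158 to 217 CPM in ND and 250 to 449 CPM with sorbitol, 3 ranges that do not overlap. Of all tested genes 1.12% had ND below all 12 libraries with LIF, and 13.9 and 13.1% lay wholly above NS at 250 and 300 mM. Tfcp2l1 rose against ND by 0.90 ± 0.24 at 300 mM (edgeR, adjusted p = 0.0278). DESeq2 called it higher than in ND at 200, 250 and 300 mM (adjusted p = 0.0116, 0.0252 and 0.00666). Gbx2 and Myc, also known LIF targets, had 0 to 13 reads per library and were not tested. Pim2, the remaining Pim kinase gene, was 32.7, 35.8 and 31.8 CPM in ND against 6.69 to 21.4 CPM in the 12 libraries with LIF. It was chosen after its values were seen, and its change of 1.57 ± 0.37 against NS did not pass in edgeR (adjusted p = 0.242), while DESeq2 called it higher in ND than in NS (adjusted p = 0.0445) and lower at 200 and 300 mM than in ND (0.0420 and 0.0390).

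**Figure D3:**
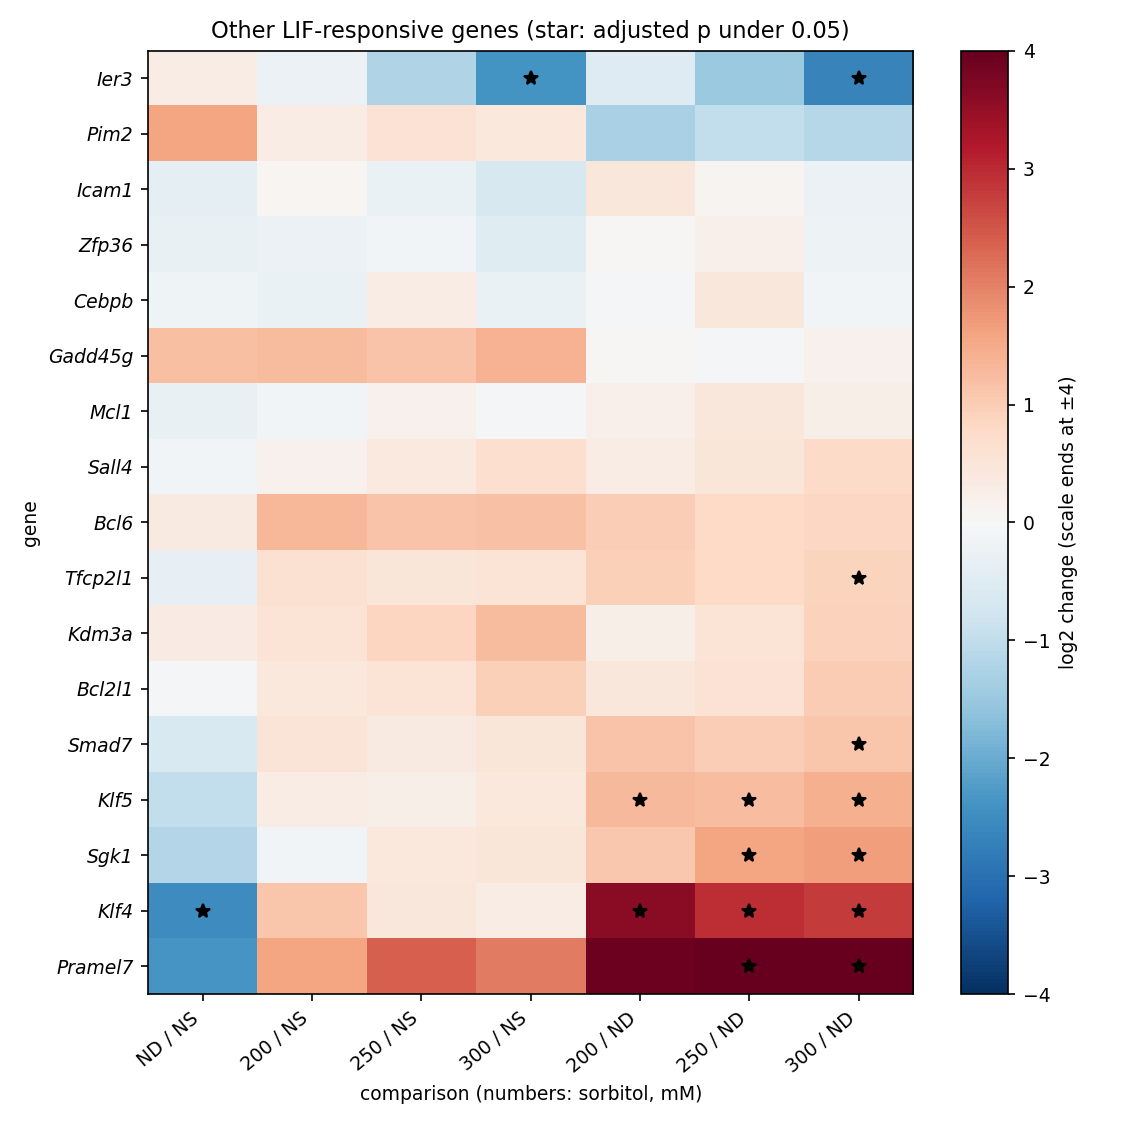
Log2 change (colour; the scale ends at 4 in either direction) of the 17 tested genes known to respond to LIF or STAT3 (y axis) in the 7 comparisons (x axis); a star marks an adjusted p under 0.05 in edgeR. The stars gather in the comparisons of sorbitol with ND, for Klf4 and Klf5 at all 3 doses, and Ier3 is the 1 gene with stars for a fall at 300 mM.

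Junb and Pim3, like Socs3, were uneven within some groups. Over the 15 libraries, Pearson's r of the log2 CPM was 0.83 between Socs3 and Junb, 0.79 between Socs3 and Pim3, and 0.84 between Junb and Pim3, while Stat3 and Bcl3 had an r of 0.80. These coefficients are descriptions over libraries that share depth and scaling with all genes. They mix differences within groups with those between groups. At 250 mM the third library was the highest for Socs3, at 43.6 CPM, and the lowest for Junb, at 23.0 CPM. NS 3 was the highest NS library for Socs3, Junb and Pim3, and NS 1 the lowest, as replicate 1 was the lowest library for Socs3 in all 5 groups.

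Of the classical immediate early genes, Egr1, Fos and Jun peaked in other libraries than Socs3. Egr1, named after its values were seen, was 189 CPM in ND 2 and 247 CPM in the second 200 mM library, against at most 27.7 CPM in the other 13. Fos was 27.5 and 46.0 CPM in those libraries and at most 2.39 CPM elsewhere, and Jun was 148 and 103 CPM, against at most 69.2 CPM. Junb was also highest of its group in both, at 29.8 and 32.4 CPM. In NS 3, where Socs3 peaked, Egr1 was at 27.7 CPM, the highest of the NS libraries, the lowest being at 5.45 CPM. Fos was at 0.89 CPM in NS 3, the lowest of the NS libraries. Nr4a1, Dusp1 and Ier2, immediate early genes named after their values were seen, were also highest of the NS libraries in NS 3, as Egr1 and Socs3 were. Nr4a1 was 48.2 CPM there, the highest of all 15 libraries, against 2.87 and 2.73 CPM in NS 1 and NS 2. Dusp1 was 115 CPM in NS 3 against 43.5 and 53.6 CPM, and Ier2 75.8 CPM against 36.3 and 63.6 CPM. The 8 listed immediate early genes summed to 97.9, 132 and 275 CPM in NS 1, 2 and 3, with the highest sums in ND 2 (402 CPM) and the second 200 mM library (541 CPM). The part of these libraries in the results for Socs3 and Junb was not tested.

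**Figure D4:**
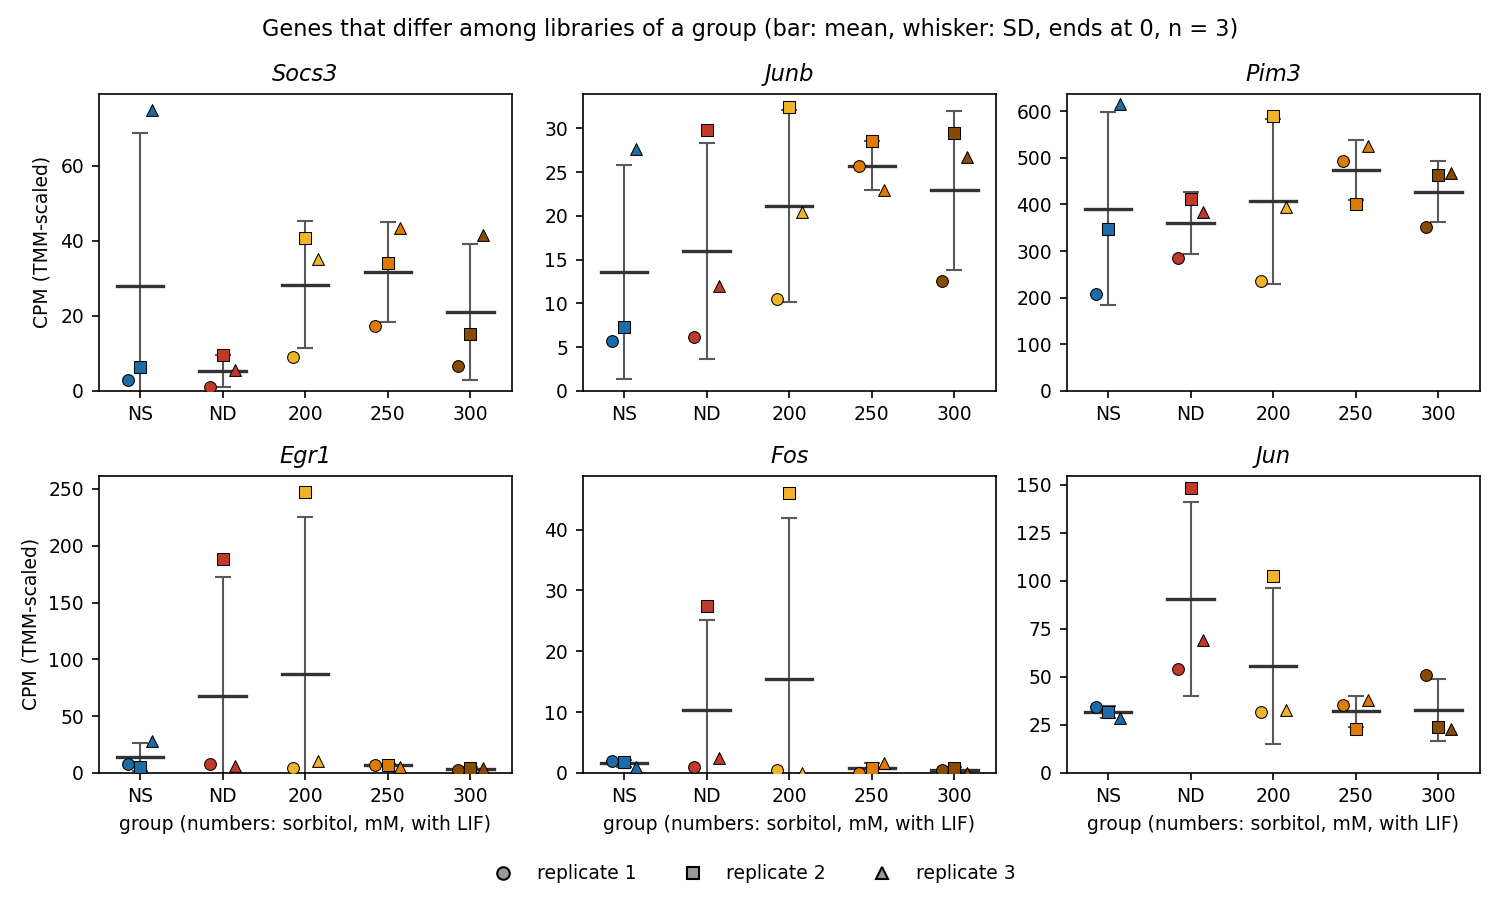
Scaled counts (CPM, y axis) by group (x axis; numbers are mM of sorbitol with LIF) of Socs3, Junb and Pim3 above and of Egr1, Fos and Jun below; points are libraries, bars the mean and whiskers the SD of 3 libraries, drawn no lower than 0. Socs3 peaks in NS 3, and Egr1, Fos and Jun peak in ND 2 and in the second 200 mM library.

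Among 6201 tested genes with a mean of at least 20 CPM, those most like Socs3 over the 15 libraries were Hspbap1 (Pearson's r = 0.92, Spearman's rho = 0.91), 2410004A20Rik (0.88 and 0.80) and Rapgef2 (0.87 and 0.84). Hspbap1 was 12.4, 19.1 and 57.1 CPM in NS 1, 2 and 3, highest in NS 3 as Socs3 was, and 13.7 to 23.9 CPM in ND. The genes most like Bcl3 were Mras (0.95 and 0.88), Parvb (0.94 and 0.65) and Klf5 (0.94 and 0.74). Mras was 27.7 to 49.1 CPM in NS, 1.19 to 11.9 in ND and 35.6 to 172 CPM with sorbitol. Parvb was 33.9 to 72.7 CPM in NS, 15.5 to 20.7 in ND and 45.2 to 62.8 CPM with sorbitol. For all 3, as for Bcl3 and 1.12% of the tested genes, each ND library was below each library with LIF. These likenesses, picked from many genes, are descriptions.

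Some markers of other lineages moved with the sorbitol groups. Of 10 trophoblast markers 8 were tested, and 3, 5 and 4 rose against NS at 200, 250 and 300 mM. Of all 9390 tested genes 38, 189 and 303 rose in these comparisons. The sum of the trophoblast markers was 359 to 476 CPM in NS, 321 to 774 CPM in ND and 480 to 989 CPM over the sorbitol libraries. By group means Tfap2c was its largest part, at 350 ± 60.5 CPM (SD) in NS and 475 ± 209 in ND. At 200, 250 and 300 mM Tfap2c was 414 ± 128, 395 ± 46.5 and 300 ± 62.3 CPM. Cdx2 had 0 reads in NS and ND and 1, 11 and 8 reads at the 3 doses, and was not tested. Of 9 primitive endoderm markers 5 were tested, and 1, 3 and 3 rose against NS at the 3 doses. They summed to 35.8 to 46.4 CPM in NS, 30.2 to 51.6 in ND and 71.1 to 189 CPM with sorbitol. Their part in the changes of Il6st, Lifr, Pim1, Stat3, Socs2 and the other genes with sorbitol was not tested.

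The counts in the files are listed by symbol. The deposited Ensembl identifier belonged to the member in GENCODE M21 for 6 of the 8 genes. For Pim1 and Junb it was that of another gene, Lonp1 and Rnaseh2a, and 2 symbols carried each of these identifiers. Values are given by symbol, and whether the symbol or the identifier names the gene counted is not known for Pim1 and Junb. RefSeq places a further gene over Stat3, Bcl3, Pim1 and Pim3 (Gm46295, Gm16174, Gm26885 and Gm33049), none of which is used here, and without a stated strand setting reads of such partners cannot be told apart.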

How the data were processed

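The 15 libraries were 3' tag RNA-seq (QuantSeq) of mouse embryonic stem cells after 72 h, in 5 groups of 3. Per the submitters' processing notes, CASAVA 1.8.2, STAR, HTSeq and edgeR were used with mm9; other versions, annotation and strand setting were not given in the sources used here. As deposited by the authors, there were 4 tables, each of NS with 1 other group, with raw counts per gene for each library. Beside these, per the file headers, stand the authors' log2 fold changes and log2 CPM, a signed linear fold, a likelihood-ratio score, p-values with FDR, and the group means (a signal not scaled for depth) and SDs of raw counts. The counts were used for all tests, and of the authors' results only FDRs are cited, as theirs. The identical NS counts were joined by symbol into 21516 rows, of which 4119 were at 0 throughout, and 0 rows named no gene. A chi-square of counts per degree of freedom lay between 2.45 and 29.3 within groups, so no library was treated as a duplicate.

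edgeR 4.0.16 in R 4.3.3 gave TMM-scaled CPM and the quasi-likelihood test over all 15 libraries in 1 fit, after its filter (minimum count 10, minimum total 15), for 9390 genes, with Benjamini-Hochberg adjustment at 0.05. A slope per 50 mM was fitted to the 9 sorbitol libraries over 8928 genes. The SE is the log2 change divided by the square root of F. The fits were tested on simulated data. Totals of 968556 to 2289528 counts set the precision, and the level of 3 counts covers counting error only. Sequences come from the RefSeq promoter table for GRCm38.p6, another build than that of the counts, and were matched by symbol. The older symbols Tcfcp2l1 and Tcfap2c were read as Tfcp2l1 and Tfap2c.

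The members and lists were chosen with earlier results of these data known. Named genes were the 8 members, every listed gene that passed and whose higher group reached 20 CPM (at most 4 per list and comparison, by size of change), 11 genes named always (Klf4, Klf5, Tfcp2l1, Gbx2, Sgk1, Myc, Jak1, Osmr, Socs2, Jun and Fos) and, for Socs3 and Bcl3, the 3 genes with the highest Pearson correlation of log2 CPM (prior count 2). Alternatives were DESeq2 1.42.0, its size factors in edgeR, library totals, no filter, only the libraries of the groups compared, the replicate number as a block, and each library left out. The replicate numbers are in the labels, which do not say what a number shares. Deviations of same-numbered libraries from their group means correlated above 0.1 in all 3 pairs for NS with 200 mM (0.69, 0.12 and 0.63) and ND with 200 mM (0.63, 0.48 and 0.54), so for these comparisons a blocked value that changes a call stands beside the result.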

Additional observations from a re-analysis of the deposited data

How the results depend on the processing

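For the 8 members, DESeq2 and its size factors in edgeR kept the direction and the side of the threshold of all 56 changes (8 genes in 7 comparisons), and library totals kept 55, the exception being Socs3 at 200 mM against NS (-0.012). The cause of the changes below was not tested. The number of genes past the threshold moved with most settings. ND against NS had 3, and 1 with DESeq2's size factors in edgeR, 37 with no filter, 40 with the replicate block, 0 with only its libraries, 26 in DESeq2 and 0 to 74 when a library was left out. At 200 mM against NS the 55 became 161 with no filter, 268 with the block, 1 with only its libraries, 161 in DESeq2 and 12 to 150 without a library. At 250 mM the 420 became 825, 1683 with the block, 742 in DESeq2 and 84 to 1413, and at 300 mM the 741 became 1869 with the block, 462 with only its libraries and 210 to 1500. Against ND, 181 at 200 mM became 342 with no filter, 512 with the block, 48 with only its libraries, 299 in DESeq2 and 97 to 168. At 250 mM 551 became 836, 1419 with the block and 206 to 434, and at 300 mM 907 became 1863 with the block and 461 to 839. The 9 slopes became 0 with library totals, 148 with no filter, 111 with the block, 70 in DESeq2 and 0 to 41.

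Among the members, the 1 call in ND against NS became 2 with no filter (Socs3, adjusted p = 0.0115), 2 with the block (Stat3, 0.0443), 0 with only its libraries and 0 to 1 without a library. At 250 and 300 mM against NS the block gave 1 call each where there were 0 (Il6st, -1.11, adjusted p = 0.0210, and Pim1, -0.85, 0.0333), and leaving out a library gave 0 to 2 at 250 mM. At 200 mM against ND the 2 calls became 1 with only its libraries and 1 to 2 without a library. Socs3 passed against ND at all 3 doses with no filter (adjusted p = 0.00157, 0.000196 and 0.00643), and at 250 and 300 mM with the block (0.00365 and 0.0338). Over the group pairs 24 of 30 same-number correlations were above 0.1. Outside the comparisons with 200 mM not all 3 pairs of a comparison with NS or ND were. With 3 libraries per group this rule cannot exclude pairing there, so the blocked calls stand here beside the main ones.

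When a library was left out, members that changed sign ranged as follows on the log2 scale. In ND against NS these were Junb (-0.55 to 1.19), Pim3 (-0.42 to 0.38) and Socs3 (-3.17 to 0.073). At 200 mM against NS they were Lifr (-0.24 to 0.047), Pim3 (-0.31 to 0.55) and Socs3 (-0.57 to 2.66). At 250 mM they were Pim3 (-0.027 to 0.77) and Socs3 (-0.38 to 2.85), and at 300 mM Pim3 (-0.17 to 0.63) and Socs3 (-1.36 to 2.23). Against ND, Pim3 at 200 mM (-0.20 to 0.45) and Lifr at 250 mM (-0.15 to 0.19) did so.

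Both following settings were chosen after seeing the data. Replicates 2 and 3 alone, without the deepest libraries, gave 0, 4, 28 and 116 calls for ND and the 3 doses against NS, 35, 140 and 361 against ND and 27 slopes. Member calls were then 0 in ND against NS and 1 each at 200 and 250 mM against ND, and signs changed for Socs3 (-0.10 at 200 and -0.080 at 250 mM against NS), Pim3 (-0.070 at 250 and -0.046 at 300 mM against NS) and Lifr (-0.21 at 250 mM against ND). With NS 3 as the only NS library, taken to vary like the other groups, 0, 4, 10 and 32 genes and 0 members passed against NS. Signs changed for Junb (-0.92 in ND, -0.43, -0.066 and -0.24 at the 3 doses), Socs3 (-1.44 at 200 and -1.22 at 250 mM), Pim3 (-0.59, -0.34 and -0.47 at the 3 doses) and Lifr (0.079 at 200 mM). The few reads of Socs3, Junb and Il6st in these libraries limit what can be resolved for them.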
